A study of Mus musculus with 9 samples.

Results

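K5H2 mice were compared with Hmga2-/- mice after UVB, in RNA from keratinocytes of dorsal skin. The comparison covered every protein-coding gene with a normalized count of 10 or more in at least 3 of the 9 libraries. That left 12968 of the 22028 protein-coding genes listed, and 55536 genes of all types were listed. The mice were 8 weeks old, with hair follicles at rest (telogen), with 3 WT, 3 Hmga2-/- and 3 K5H2 animals. UVB was given to all, WT included, in 2 exposures of 20 mJ/cm2 spread over 3 days, and skin was taken 24 h after the last. Overnight 0.25% trypsin freed the epidermis as a sheet. Hmga2-/- is a genotype label for loss of Hmga2. For K5H2 the sources used here give the name alone, with no promoter and no account of its Hmga2 alleles. With no unexposed skin in the comparison, every difference below is between genotypes after UVB. By its title, the series asks how Hmga2 and cAMP bear on melanocyte stem cells after UVB.

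Hmga2 encodes a high-mobility-group protein that binds the minor groove of AT-rich DNA and changes how chromatin is folded. It is abundant in embryonic tissue and low in most adult tissue. Keratinocytes respond to UVB with a DNA damage response, with cytokines and interferon-type signals, and with factors that act on neighbouring melanocytes, whose pigment response runs through cAMP.

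The libraries held 27.4 to 36.1 M normalized counts, and what 1 read is worth in each gave an approximate 28.1 to 41.5 M reads in genes for 8 libraries and 15.4 M for Hmga2-/- 3. The mitochondrial share was lowest in Hmga2-/- 3 (0.279%) and Hmga2-/- 2 (0.502%); the other 7 libraries had 0.983% to 2.15%. Markers of basal keratinocytes were high everywhere: Krt5, a basal keratin, was at 465923 to 636557 in the 6 libraries compared. Krt10, a suprabasal keratin, was at 945654 to 2210490. Ly6g, of neutrophils, was at 0 in all 9 libraries, and Cdh5, of endothelium, at 0 to 1. Other markers of the same lists were present. Past the filter were 11 of 14 neutrophil and macrophage markers and 4 of 9 endothelial ones. The full lists summed to 457 to 5005 and to 26 to 77 over the 9 libraries. Xist was at 0 in all 9 libraries, and the Y-linked Ddx3y was at 1067 or more in each. Column codes of WT and Hmga2-/- started with 235 and those of K5H2 with 501, so that code series and the K5H2 genotype cannot be told apart.

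Hmga2 itself was low in both groups. It was at 3, 9 and 7 normalized counts in Hmga2-/- 1 to 3 and at 4, 11 and 0 in K5H2 1 to 3. WT held 346, 11 and 56. The K5H2 and Hmga2-/- libraries overlapped, and WT 2 lay at the level of the highest K5H2 library. The difference was -0.81 on the log2(value + 1) scale (two-sided exact permutation p = 0.7, where 0.1 is the smallest p that 3 against 3 animals allow). Without K5H2 3 its sign turned, to 0.18.

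At an adjusted p under 0.05 (limma across all 14695 genes of any type), 37 protein-coding genes differed, which is 0.285% of those tested; over genes of any type 73 were called, or 0.497%. Of these, 23 were higher in K5H2 (0.177%) and 14 were lower (0.108%). At an unadjusted p under 0.05 there were 2739, or 21.1%. The libraries of the 2 genotypes did not overlap for 3462 genes, or 26.7%, with K5H2 the higher for 13.7% and the lower for 13%. The median difference over all protein-coding genes was 0.00 on the log2 scale. Among the 1727 tested genes of other types 36 were called (2.08%), and among the pseudogenes in that number 21 of 608 (3.45%).

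**Figure D1:**
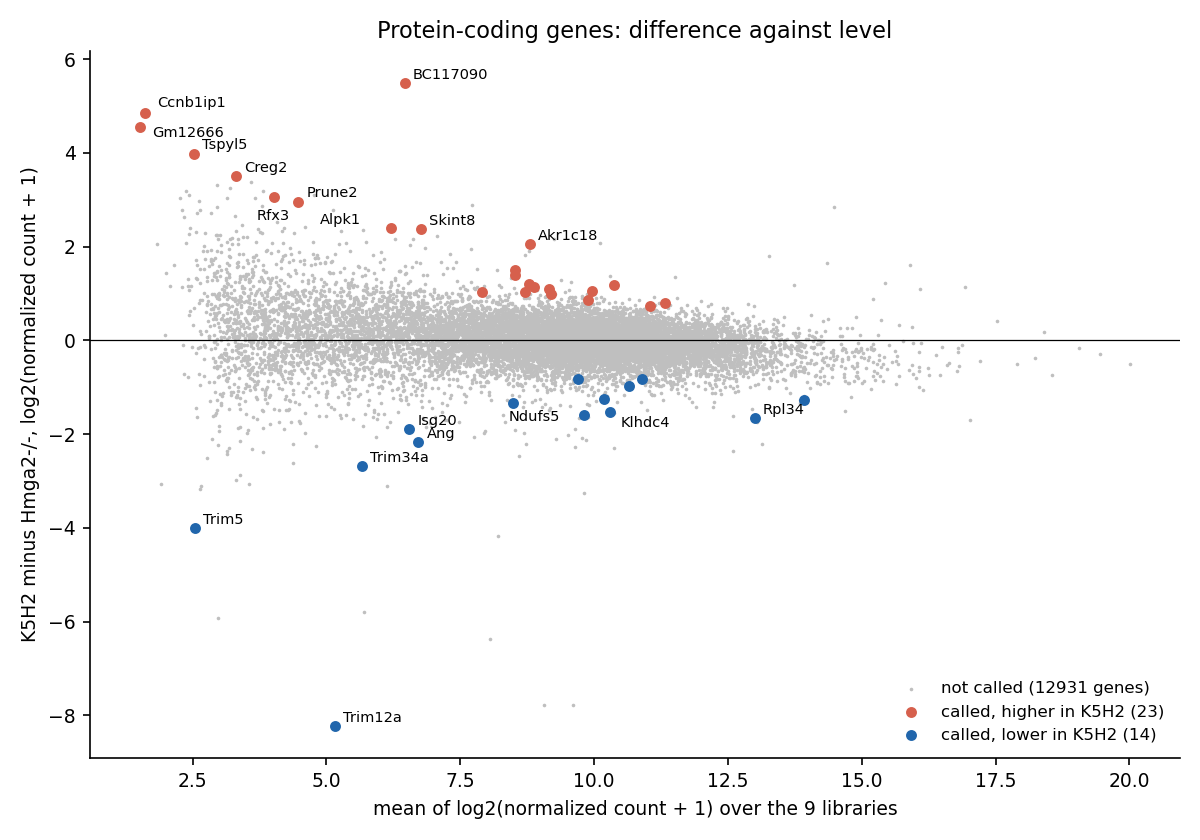
Each dot is 1 of the 12968 protein-coding genes, with its mean log2(normalized count + 1) over the 9 libraries on the x axis and K5H2 minus Hmga2-/- on the y axis. Red and blue dots are the 23 genes called higher and the 14 called lower in K5H2, and Trim12a and BC117090 lie at the 2 ends.

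The calls were sensitive to single mice. BC117090, Klhdc4, Mccc1, Ogt and Trim12a were called with each of the 9 libraries left out in turn. Of the other called genes, 14 lost the call whichever of the 6 compared libraries was left out: Ago3, Isg20, Kif26a, Leng8, Mapk8ip3, Per2, Pik3r1, Pnisr, Pop4, Prpf39, Prune2, Skint8, Srpk2 and Trim34a. Leaving out K5H2 3 left 9 calls, K5H2 1 left 11, K5H2 2 left 20, and Hmga2-/- 1 to 3 left 22, 11 and 13. Leaving out WT 1 gave 160 calls and leaving out WT 3 gave 14; WT enters this comparison through the estimate of the spread, which all 9 libraries share. With only protein-coding genes fitted, 9 were called: Trim12a, BC117090, Ndufs5, Klhdc4, Cyp17a1, Crlf2, Mccc1, Ogt and Alpk1.

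WT values place the called genes. All 3 K5H2 libraries lay beyond all 6 other libraries for 20 of the 23 higher genes and for all 14 lower ones, where the shares over all genes tested were 4.44% and 3.39%. The Hmga2-/- libraries lay beyond all 6 others, on the opposite side, for 14 of the 23 and 5 of the 14, where the shares over all genes tested were 6.05% and 6.68%. Some genes met both descriptions, with WT between the 2 genotypes. For Ago3, Akr1c18 and Alpk1 only the Hmga2-/- libraries lay apart, below WT and K5H2. The rule of the call used the K5H2 and Hmga2-/- values, so these counts are a description.

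The largest fall was in a group of antiviral TRIM genes on chromosome 7. TRIM proteins are ubiquitin ligases, and primate TRIM5 binds the capsids of incoming retroviruses. Trim34a, Trim5 and Trim12a lie side by side within 104244457 to 104315466 (mm10). Their promoters are shown with the neighbouring, uncalled Trim12c because all 4 hold the letters TTTC, then any 2 bases, then TTTC, a core of interferon-stimulated response elements. The search ran over both strands, and 3.44% of 32851 promoter windows held a match. Of the other genes searched nearby, Trim30a and Trim30d also held a match, and Trim34b, Trim30b and Trim6 held none. No searched window of Isg20, a called interferon-stimulated gene, held a match. Trim5, Trim12a and Trim12c are close copies of one another, so their matches are not separate observations. Whether the letters bear on the falls was not tested. The searched windows run from 250 bases before to 50 bases after the RefSeq start (GRCm38.p6), 300 bases in all. Printed is a shorter stretch of each, from 100 bases before to 20 bases after the start, with the match in capitals. All 4 symbols were found in the RefSeq table.
Trim34a, chr7:104244357-104244476, plus strand: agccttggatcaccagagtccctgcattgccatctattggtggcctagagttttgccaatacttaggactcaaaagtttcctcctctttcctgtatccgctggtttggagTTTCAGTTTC
Trim5, chr7:104288087-104288206, minus strand: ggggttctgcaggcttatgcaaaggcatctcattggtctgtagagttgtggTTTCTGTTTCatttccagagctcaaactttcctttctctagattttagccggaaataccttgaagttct
Trim12a, chr7:104315476-104315595, minus strand: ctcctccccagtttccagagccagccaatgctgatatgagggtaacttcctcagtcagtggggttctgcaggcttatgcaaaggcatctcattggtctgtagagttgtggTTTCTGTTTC
Trim12c, chr7:104353330-104353449, minus strand: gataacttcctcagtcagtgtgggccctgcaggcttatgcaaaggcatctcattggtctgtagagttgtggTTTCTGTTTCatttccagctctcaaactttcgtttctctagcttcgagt

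Trim12a, a rodent relative of Trim5, was at 298, 247 and 358 in Hmga2-/- 1 to 3 and was listed at 0 in all 3 K5H2 libraries. WT held 76, 218 and 212. Its fitted difference was -8.22 (SE 0.42, adjusted p = 1.5e-05), a size that depends on the pseudocount because K5H2 is at 0. Trim5 was at 25, 26 and 5 and was listed at 0 in all 3 K5H2 libraries (difference -4.01, SE 0.74, adjusted p = 0.047, and 0.16 without K5H2 3). Trim34a fell from 127, 77 and 119 to 11, 19 and 18 (difference -2.68, SE 0.47, adjusted p = 0.039, and 0.13 without K5H2 3). In none of these 3 genes did the 2 genotypes overlap.

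Trim12c, which shares the promoter letters above and 96.5% of 981 aligned bases with Trim12a, was not called. It was at 276, 324 and 451 in Hmga2-/- and 324, 388 and 384 in K5H2, a difference of 0.09 (SE 0.34). Trim30a was at 25, 25 and 7 against 15, 19 and 20. Trim34b, too low to be tested, was at 0 in all 3 Hmga2-/- libraries and at 11, 24 and 9 in K5H2. Its transcript matches Trim34a at 98.7% over 1827 bases, so reads of the pair may be split between them. Their sum was 127, 77 and 119 in Hmga2-/- and 22, 43 and 27 in K5H2, which is still lower in every K5H2 library. Of the 10 tested members of the chromosome 7 TRIM list, 3 were called, all lower, where 0.108% of all genes tested were called lower. The list median was 0.07.

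Interferon-stimulated genes, which code for antiviral effectors and for their own regulators, were mostly lower in K5H2. Of 31 tested, 27 had negative differences and the median was -0.84, against 0.00 over all genes. In 19 of the 31 every K5H2 library lay below every Hmga2-/- library, a pattern that 13% of all tested genes showed. Only Isg20 was called, which is 1 of 31 against the 0.108% called lower. Isg20, an exonuclease that degrades viral RNA, fell from 185, 164 and 218 to 46, 49 and 54 (difference -1.90, SE 0.29, adjusted p = 0.019, and 0.092 without Hmga2-/- 3). The 3 K5H2 libraries lay close together and below every Hmga2-/- library.

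The other members did not pass the test. Isg15, a ubiquitin-like modifier, was at 199, 186 and 187 in Hmga2-/- and at 73, 96 and 30 in K5H2 (difference -1.66, SE 0.45, adjusted p = 0.12). Irf7, which amplifies the response, was at 275, 242 and 236 against 71, 112 and 111 (-1.37, SE 0.41). For Isg15 and Irf7 the 2 genotypes did not overlap. The chemokine Cxcl10 was at 240, 235 and 154 against 82, 142 and 49. WT 2 and WT 3 lay between the 2 genotypes for Isg15, with 149 and 170, and WT 1 was low at 65.

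Over the whole list the Hmga2-/- libraries lay above all WT libraries for 15 of 31 genes, against 15.4% of all genes tested. The K5H2 libraries lay below all WT libraries for 3 of 31, against 14.5% of all genes. Both comparisons use the same WT mice. The summed level of epidermal T cell markers was 4817 to 5783 in Hmga2-/- and 2334 to 3589 in K5H2, lower in every K5H2 library. WT held 1668, 5367 and 3232. The sum weighs abundant markers most: of 12 markers tested from 15, 6 had negative differences and the median was 0.01. Every K5H2 library lay below every Hmga2-/- library for 2 of the 12, or 16.7%, against 13% of all genes. The summed level of Langerhans cell and class II markers was 25922 to 49052 against 21953 to 32606. Their part in the interferon result was not tested. In bulk RNA, fewer cells of a type and less RNA per cell cannot be told apart. With the trend with transcript length described further on removed, the list median was -0.66.

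**Figure D2:**
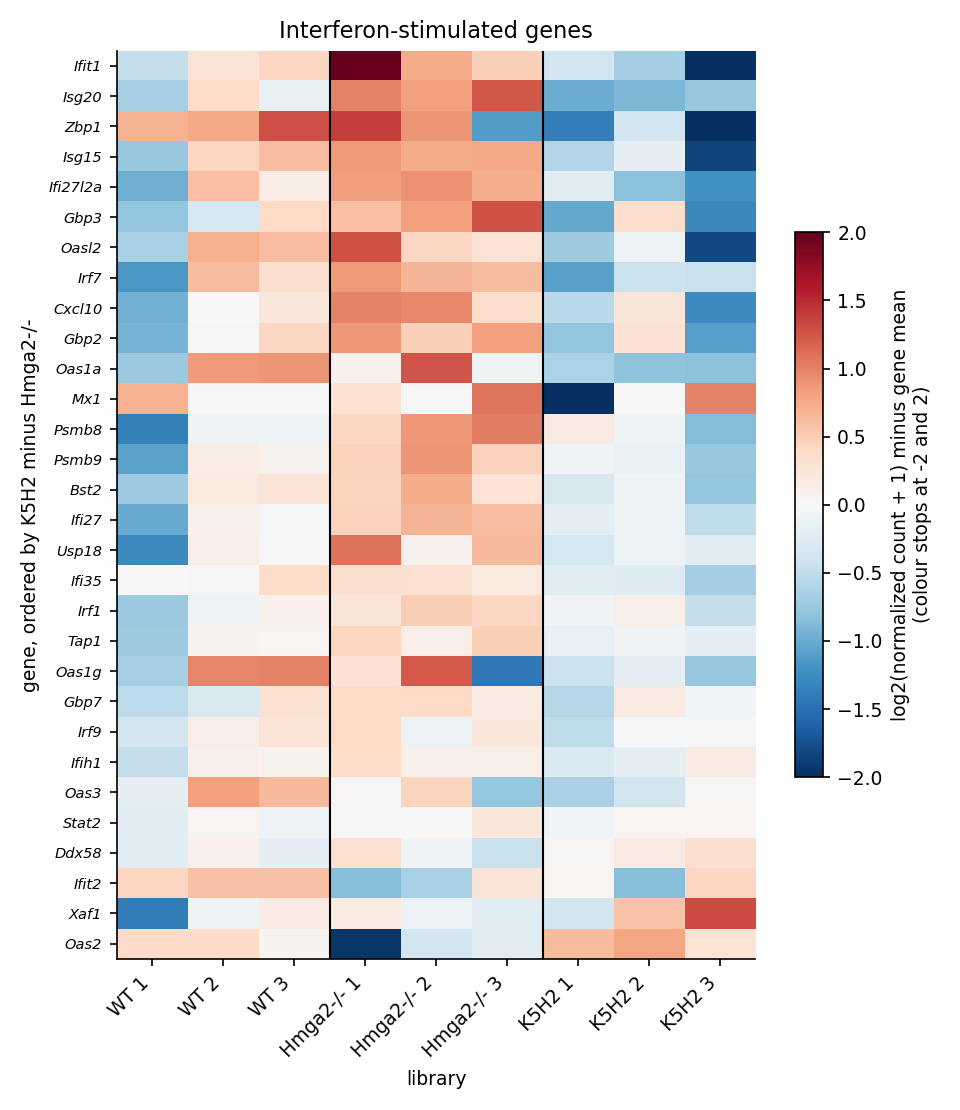
Rows are 30 of the 31 tested interferon-stimulated genes, ordered by K5H2 minus Hmga2-/-, and columns are the 9 libraries. Colour is log2(normalized count + 1) minus the gene's mean, and the 3 Hmga2-/- columns are mostly above the mean (red) where K5H2 and WT 1 are mostly below it (blue).

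Outside antiviral genes, 7 called falls had no near-identical copy among the called genes. Klhdc4, a kelch-domain protein, was the most even: 1719, 1846 and 1920 in Hmga2-/- against 686, 646 and 559 in K5H2 (difference -1.54, SE 0.16, adjusted p = 0.0021). WT held 1458, 1720 and 2027, a span that holds all 3 Hmga2-/- values. The non-coding gene Gm42047 lies 3.68 kb from Klhdc4 on chromosome 8 and fell as well. It was at 61, 98 and 313 in Hmga2-/- and was listed at 0 in all 3 K5H2 libraries.

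Mccc1, a subunit of the carboxylase that breaks down leucine, fell from 1419, 1850 and 1866 to 828, 682 and 642 (difference -1.25, SE 0.16, adjusted p = 0.0080). Crlf2, the receptor subunit that binds the epidermal cytokine Tslp, fell from 440, 535 and 517 to 169, 235 and 185 (-1.35, SE 0.19, adjusted p = 0.016, and 0.074 without K5H2 3). Arrb1, beta-arrestin 1, which desensitises G-protein-coupled receptors, fell from 2036, 2064 and 2486 to 1238, 1103 and 990 (-0.98, SE 0.15, adjusted p = 0.019, and 0.084 without Hmga2-/- 3). None of these 3 overlapped between the genotypes.

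Ang, a secreted ribonuclease, fell from 198, 200 and 159 to 31, 80 and 26 (-2.17, SE 0.39, adjusted p = 0.043, and 0.17 without K5H2 3). Its transcript shares 116 bases with Rnase4 at the same locus. Pnpla8, a calcium-independent phospholipase A2, fell by 0.83 and Pop4, a protein of the ribonuclease P and MRP complexes, fell by 0.82. The adjusted p was 0.040 for Pnpla8, and 0.12 without Hmga2-/- 2; with the length trend removed its difference was -1.31. For Pop4 it was 0.048, and 0.18 without K5H2 3.

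**Figure D3:**
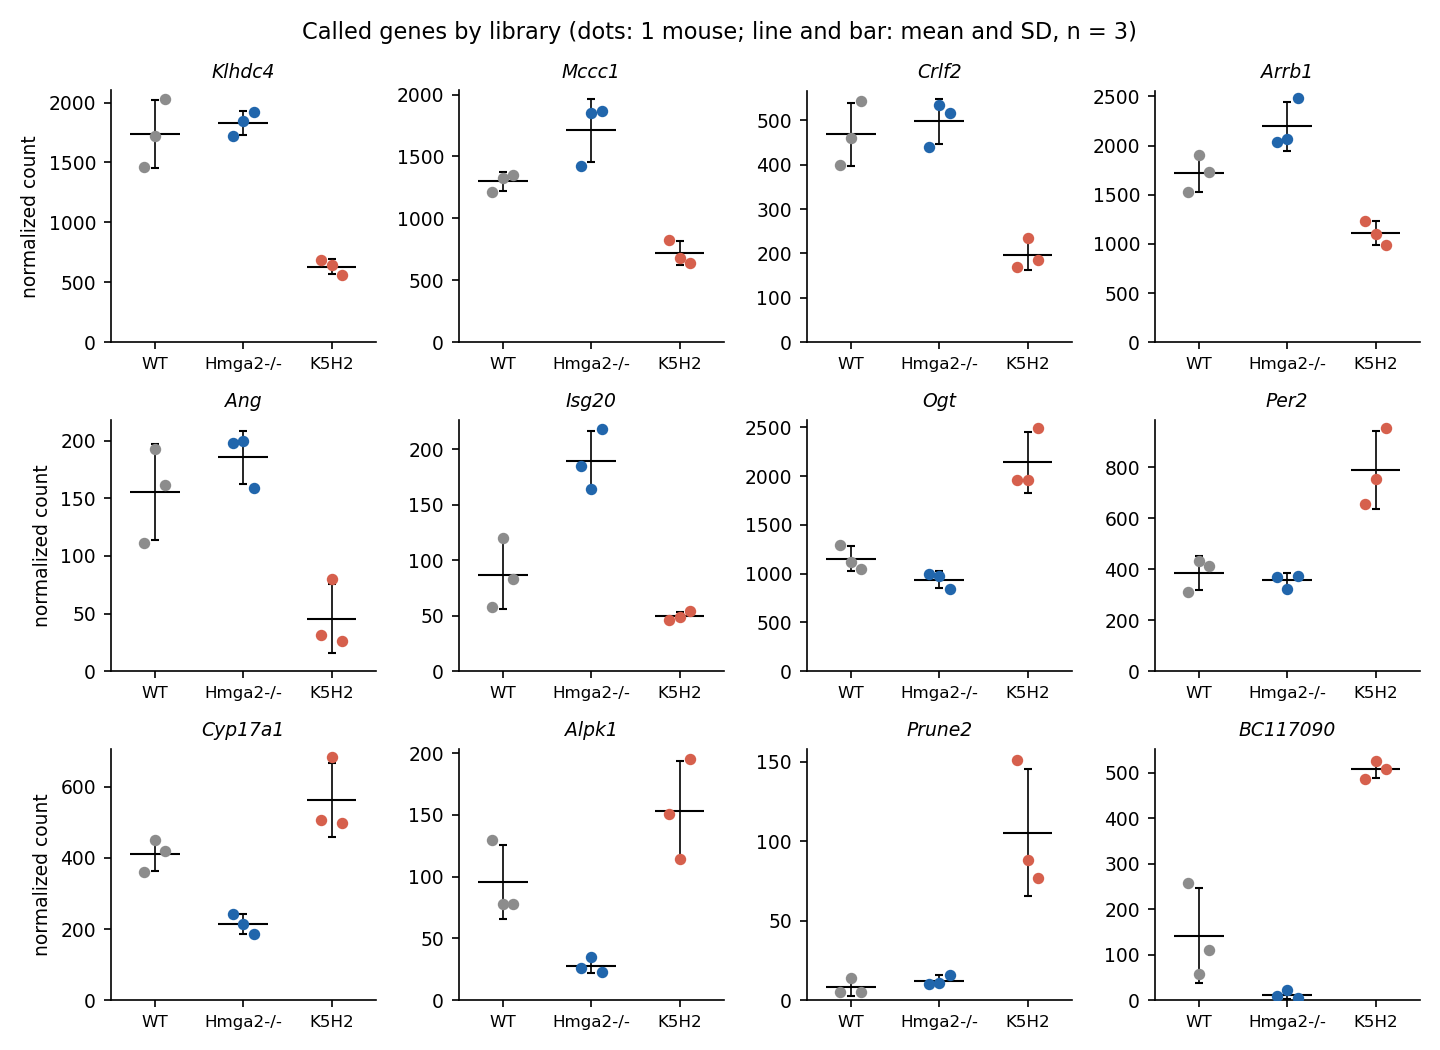
Normalized counts of 12 called genes are shown by genotype, with 1 dot per mouse and the mean and SD of 3 mice. For Klhdc4, Crlf2, Ogt, Per2 and Prune2 the WT dots lie near the Hmga2-/- dots, whereas for Alpk1 and Cyp17a1 they lie nearer to K5H2.

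Most ribosomal protein, respiratory complex I and proteasome genes had negative differences in K5H2, with few calls. These 3 families were chosen after their values were seen. Of 79 measured cytosolic ribosomal protein genes, 78 had negative differences, the median was -0.77, and 53 lay below every Hmga2-/- library, against 13% of all genes. Rpl34 and Rpl29 were called, 2 of 79 against 0.108% called lower. Of 36 respiratory complex I subunits, 34 had negative differences with a median of -0.62, 14 lay below every Hmga2-/- library, and only Ndufs5 was called. Of 37 proteasome subunits, 36 had negative differences with a median of -0.45, 19 lay below every Hmga2-/- library, and none was called. With the trend with transcript length described further on removed, the medians were -0.48 for ribosomal, -0.27 for complex I and -0.25 for proteasome genes. K5H2 3 held the lowest ribosomal protein levels, with a library median of -0.88 around the gene means, where K5H2 1 and K5H2 2 were at -0.07 and -0.06 and Hmga2-/- 1 to 3 at 0.29 to 0.56. K5H2 3 was also the lowest for complex I, at -0.84, where K5H2 1 and K5H2 2 were at -0.06 and -0.08. For the proteasome K5H2 1 to 3 were at -0.16, -0.09 and -0.55.

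The 3 called members of these families each have near-identical processed copies elsewhere in the genome that were called in the opposite direction. Rpl34 fell from 10394, 16268 and 17232 to 4340, 6810 and 3178, while Rpl34-ps1, identical to it at 99.4% of 354 aligned bases, rose from 62, 57 and 37 to 2424, 1066 and 404. Adding the pair gave 10456, 16325 and 17269 against 6764, 7876 and 3582, a difference of -1.32 where that of Rpl34 alone was -1.65. Rpl34 thus stayed lower in every K5H2 library when its copy was counted in.

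Rpl29 fell from 27783, 20065 and 15434 to 7240, 10463 and 8000. Its copies Gm8210 and Gm13841, identical to it at 99.4% of 483 aligned bases, together rose from 25, 6 and 0 to 568, 1614 and 1835. The difference was -1.28 for Rpl29 and -1.07 with its copies added. Ndufs5 fell from 1252, 1632 and 1219 to 545, 539 and 306, and its copy BC002163 rose from 40, 56 and 21 to 136, 200 and 136. The difference was -1.60 for Ndufs5 and -1.20 with its copy added. Since reads can be split between such pairs, the size of each gene's difference is uncertain.

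**Figure D4:**
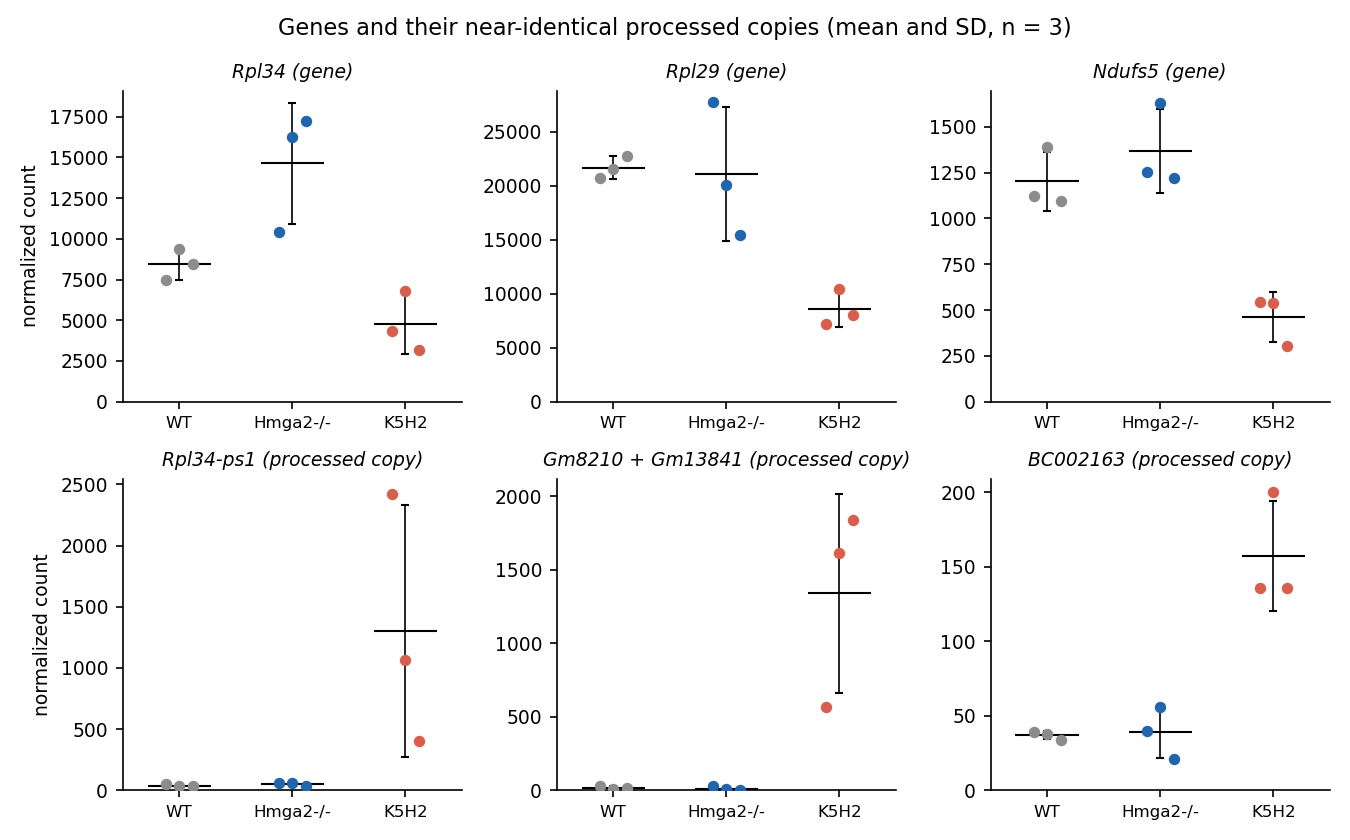
The upper row shows normalized counts of Rpl34, Rpl29 and Ndufs5 and the lower row those of their called processed copies, with 1 dot per mouse and the mean and SD of 3 mice. In each pair the gene is lowest and the copy highest in K5H2, on axes whose scales differ.

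The rises are given below by what each gene is known to do, a grouping made after the values were seen and with no test. Prpf39, a component of the U1 spliceosome particle, rose from 413, 448 and 360 to 830, 844 and 922 (difference 1.09, SE 0.17, adjusted p = 0.024, and 0.12 without K5H2 3). Srpk2, a kinase of splicing factors, rose by 0.73, and Pnisr, a splicing-associated protein, by 0.85. Leng8 rose by 1.06 and Ago3, an Argonaute protein that loads small RNAs, by 1.03. Adjusted p values were 0.038 for Srpk2, 0.027 for Pnisr, 0.041 for Leng8 and 0.042 for Ago3, and without K5H2 3 they were 0.12 to 0.14. With the length trend removed, the differences of Ago3 and Srpk2 were 0.51 and 0.48 and neither was called. For Ago3 the values were 153, 165 and 140 in Hmga2-/- and 299, 334 and 307 in K5H2, and WT held 336, 244 and 295. Of 32 measured genes of the Srsf, Srpk, Clk, Prpf and Luc7l families, chosen after values were seen, 20 had positive differences and the median was 0.08. Prpf39 and Srpk2 were the 2 called, where 0.177% of all genes tested were called higher. Transcripts of Srpk2 and Prpf39 share bases with Kmt2e and Fkbp3 at the same loci, which limits how firmly their reads can be assigned. The same limit holds for Leng8, which shares 263 bases with Leng9 on chromosome 7.

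Ogt, the enzyme that attaches O-linked N-acetylglucosamine to intracellular proteins, rose from 1000, 980 and 840 to 1962, 1964 and 2499 (difference 1.18, SE 0.15, adjusted p = 0.0090). It kept its call with every library left out, with adjusted p up to 0.040. WT held 1294, 1116 and 1045, closer to Hmga2-/- than to K5H2.

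Pik3r1, the regulatory subunit of phosphoinositide 3-kinase, rose from 2411, 1924 and 2332 to 4265, 3438 and 3928 (0.80, SE 0.14). Mapk8ip3, a scaffold that links JNK signalling to motor proteins, rose by 0.98 (adjusted p = 0.028, and 0.13 without K5H2 3). Its transcript shares 974 bases with Mrps34 and matches Eme2 at 97.0% of 1557 bases, which limits how firmly its reads can be assigned. The kinesin-family genes Kif26a and Kif26b rose by 1.20 (adjusted p = 0.048) and 1.49 (adjusted p = 0.021). Without K5H2 3 their adjusted p values were 0.19 and 0.11, and with the length trend removed both were 0.14. Pik3r1 had an adjusted p of 0.036, and with the length trend removed a difference of 0.53 (adjusted p = 0.13). Alpk1, a kinase that senses a bacterial sugar metabolite, rose from 26, 35 and 23 to 151, 114 and 195 (2.40, SE 0.32, adjusted p = 0.0098). WT held 130, 78 and 78, so for Alpk1 the Hmga2-/- mice were the group that stood apart. Fam13b rose by 1.03 (adjusted p = 0.034, and 0.13 without K5H2 3), and its transcript shares 417 bases with Pkd2l2.

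Cyp17a1 and Akr1c18 are both enzymes of steroid metabolism. Cyp17a1, which makes androgen precursors from pregnane steroids, rose from 242, 215 and 185 to 507, 683 and 498 (1.38, SE 0.19, adjusted p = 0.013, and 0.061 without K5H2 2). Akr1c18, which inactivates progesterone, rose from 191, 199 and 166 to 1379, 490 and 668 (2.05, SE 0.35, adjusted p = 0.034, and 0.12 without Hmga2-/- 3). WT held 361, 451 and 419 of Cyp17a1 and 899, 535 and 486 of Akr1c18, above every Hmga2-/- library in both.

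Of 21 clock genes 1 was called, where 0.177% of all genes tested were called higher. Per2, a repressor of the circadian oscillator, rose from 369, 323 and 374 to 657, 754 and 954 (1.13, SE 0.19, adjusted p = 0.034, and 0.14 without K5H2 3). Per1 was at 3446, 1639 and 2381 in Hmga2-/- and 3506, 4038 and 4531 in K5H2 (0.75, adjusted p = 0.15). The list median was 0.03. No source used here gives the time of day of collection.

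Prune2, Creg2, Ccnb1ip1, Gm12666 and Tspyl5 were at 16 or less in every WT and Hmga2-/- library. Prune2 rose from 10, 11 and 16 to 151, 88 and 77, with 5, 14 and 5 in WT (adjusted p = 0.024, and 0.11 without K5H2 1). Creg2, a secreted glycoprotein, rose from 3, 2 and 5 to 36, 47 and 59 (adjusted p = 0.018, and 0.12 without K5H2 3). Ccnb1ip1, a ligase needed for meiotic crossing over, was listed at 0 in all 6 WT and Hmga2-/- libraries and at 68, 16 and 19 in K5H2. Its adjusted p was 0.019, and 0.11 without K5H2 1, the library at 68. The Ccnb1ip1 transcript shares 233 bases with Rpph1, the RNA of ribonuclease P.

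Gm12666 was listed at 0 in the same 6 libraries and at 22, 34 and 15 in K5H2, and matches Larp7 at 98.4% of 764 bases. The adjusted p of Gm12666 was 0.018, and 0.096 without K5H2 2. Tspyl5 was at 2, 0 and 0 against 32, 11 and 29 (adjusted p = 0.039, and 0.20 without K5H2 3). Rfx3, a transcription factor of ciliary genes, was at 10, 2 and 2 in Hmga2-/- and 34, 26 and 60 in K5H2, with 25, 23 and 20 in WT, nearer to K5H2 than to Hmga2-/-. The adjusted p of Rfx3 was 0.048, and 0.23 without K5H2 3. For such low genes depth matters most: in Hmga2-/- 3, the shallowest library, 1 read is worth 2.34 normalized counts.

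Several called genes lie near one another. Within 1 Mb of another called gene lay 9 of the 37 protein-coding genes and 15 of the 73 called genes of any type. Besides the TRIM trio and Klhdc4 with Gm42047, Srpk2 lies 13.7 kb from AI506816, a non-coding gene that fell from 2972, 2735 and 1244 to 56, 75 and 60 while Srpk2 rose. Ccnb1ip1 and Ang lie 283 kb apart on chromosome 14 and moved in opposite directions. Chromosome 7 held 7 of the 37 calls, 6 of them lower, with 7.67% of the genes tested.

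The stefin and Skint clusters held members that differed within K5H2 and members that differed between genotypes. Of the stefin genes measured, BC117090 alone was called. Both were picked after their values were seen. No source used here names the strain background of any group, so differences of strain and genotype cannot be told apart at these clusters, at genes listed at 0 and at the processed copies above. Of 11 Skint genes measured 1 was called, higher, where 0.177% of all genes tested were called higher. Negative differences were found for 9, and 7 lay below every Hmga2-/- library, against 13% of all genes. Stefins inhibit cysteine proteases. BC117090, of the stefin A cluster on chromosome 16, rose from 9, 23 and 5 to 487, 526 and 509 (5.49, SE 0.56, adjusted p = 0.0021), with 258, 58 and 110 in WT. BC100530, identical to it at 95.9% of 389 aligned bases, was at 953, 4875 and 786 against 2306, 5111 and 1785, and was not called. Stfa1, identical at 94.6%, was at 237, 963 and 166 in Hmga2-/- and at 4, 657 and 1 in K5H2, so K5H2 2 lay apart from K5H2 1 and K5H2 3. Differences were 2.16 for Stfa2 (adjusted p = 0.17), 0.03 for Stfa3 (0.98) and 1.69 for Gm5416 (0.33). In these genes, as in BC100530 and Stfa1, the 2 genotypes overlapped.

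Skint proteins are butyrophilin-like molecules of keratinocytes, and Skint1 selects the T cells that populate mouse epidermis. Skint8 rose from 92, 73 and 51 to 268, 328 and 569 (2.38, SE 0.41, adjusted p = 0.034, and 0.15 without K5H2 3). Skint7, which matches Skint8 at 90.9% of 1295 aligned bases, was at 82, 96 and 94 against 237, 345 and 562 and was not called. Skint3 was at 5096, 5132 and 4369 in Hmga2-/- and at 3, 2648 and 0 in K5H2. Skint9 was at 4296, 4682 and 3363 against 2, 2086 and 0, and Skint4 at 1460, 1204 and 1247 against 4, 770 and 0. In these 3 genes K5H2 1 and K5H2 3 were at or near 0, and K5H2 2 lay at an intermediate level below every Hmga2-/- library. None of the 3 was called, with adjusted p of 0.12 each and SEs of 2.15, 2.14 and 1.79. Skint1 was at 1153, 990 and 947 against 570, 925 and 818.

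The cAMP pathway, which gives the series its theme, held a single call. Adenylyl cyclases make cAMP, and 5 of the 10 listed were measured above the filter, all with positive differences and a median of 0.47. Adcy7 was at 186, 168 and 196 in Hmga2-/- and 413, 310 and 426 in K5H2, with 175, 218 and 165 in WT (1.05, SE 0.20, adjusted p = 0.054). Adcy9 was at 158, 147 and 201 against 328, 225 and 292 (0.73, SE 0.22, adjusted p = 0.14). For both genes every K5H2 library lay above all 6 others. Phosphodiesterases, which break cAMP down, had 0 called of 7. Pde4b was at 375, 356 and 297 against 504, 470 and 551 (0.57, SE 0.18).

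Of 27 measured genes for protein kinase A, Epac, anchoring and G proteins, 0 were called and the median was 0.09. Prkar2b, a regulatory subunit of protein kinase A, was at 42, 63 and 63 against 116, 78 and 124 (0.90, SE 0.29, adjusted p = 0.14). Pkig, an inhibitor of protein kinase A, was at 637, 580 and 678 against 338, 482 and 365 (-0.69, SE 0.23, adjusted p = 0.15). Among 30 CREB factors and cAMP-response genes Per2 was the only call, where 0.177% of all genes tested were called higher. The median was -0.01, and 15 differences were positive. Crem was at 129, 140 and 103 against 109, 111 and 101.

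Melanocyte markers leaned to higher values in K5H2, with 0 called. All 8 measured of 12 had positive differences, with a median of 0.88, and the summed level was 562 to 960 in Hmga2-/- and 924 to 1380 in K5H2. Kit, the receptor for Kitl, was at 33, 76 and 14 against 99, 81 and 105 (1.49, SE 0.51, adjusted p = 0.16). Mitf, the master factor of the lineage, was at 175, 227 and 119 against 329, 237 and 260 (0.70, SE 0.27, adjusted p = 0.18). Tyrp1, a pigment enzyme, was at 34, 73 and 16 against 125, 64 and 176. Of the 6 libraries, Hmga2-/- 3 held the lowest value of Kit, Mitf and Tyrp1. Of 18 measured signals from keratinocytes to melanocytes, 0 were called and the median was 0.04. Kitl was at 867, 932 and 720 against 1132, 1006 and 802. Nrg1, a ligand of ErbB receptors, was at 25, 25 and 16 against 80, 169 and 56 (2.03, SE 0.69, adjusted p = 0.16).

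Differentiation genes of the outer epidermis leaned to lower values in K5H2, unevenly between mice. Of 46 granular and cornified layer genes, 36 had negative differences, the median was -0.64, and 0 were called. Every K5H2 library lay below every Hmga2-/- library for 7 of them, or 15.2%, against 13% of all genes. Library medians around the gene means were -1.35, -0.16 and 0.35 in K5H2 1 to 3. In Hmga2-/- 1 to 3 they were -0.16, 0.53 and 0.39. K5H2 1 was thus the far end, and K5H2 3 lay within the Hmga2-/- values. Cnfn, a cornified envelope protein, was at 6567, 12996 and 11395 against 1892, 4204 and 4314 (-1.61, SE 0.33, adjusted p = 0.069). Lor, the main protein of that envelope, was at 101463, 369366 and 691752 against 48255, 120925 and 131880, and the groups overlapped. Suprabasal keratinocyte markers summed to 1672100 to 3498800 in Hmga2-/- and 1405380 to 2071370 in K5H2, and their part in the result was not tested.

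Wound-type keratinocyte genes had no common direction, with 15 positive and 21 negative differences among 36, a median of -0.16 and 0 calls. Krt6b, a keratin of wounded epidermis, was at 1331, 8108 and 2350 in Hmga2-/- and 8879, 56167 and 19194 in K5H2 (2.85, SE 0.76, adjusted p = 0.11), against 94151 to 323404 in WT. Lce3c was at 91, 579 and 164 against 60, 64 and 57.

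Of 24 glucocorticoid-induced genes, 15 had positive differences with a median of 0.34, and 0 were called. Zbtb16, a classic target of the receptor, was at 270, 383 and 1160 against 2605, 2413 and 1683 (2.15, SE 0.49, adjusted p = 0.088). WT held 117, 290 and 260. Mt1, a metallothionein in the same list, was at 3497, 2983 and 3751 against 2356, 2318 and 957, so members of the list differed in sign. Of 23 YAP and TGF-beta responsive genes, 17 had positive differences with a median of 0.25. Ccn2, the connective tissue growth factor, was at 777, 808 and 727 in Hmga2-/- and 2447, 1705 and 1467 in K5H2 (1.25, SE 0.24, adjusted p = 0.054), with 249 to 433 in WT. Skil, a brake on TGF-beta signalling, was at 448, 695 and 587 against 1038, 979 and 1018 (0.83, SE 0.18, adjusted p = 0.073).

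Lists of the DNA damage response held no call. Of 32 measured p53 targets and regulators, 0 were called and the median was 0.03. Sesn1, a p53 target that restrains mTOR signalling, was at 1607, 1439 and 1574 against 2553, 2430 and 2359 (0.67, SE 0.16, adjusted p = 0.092). Cdkn1a, the p53-induced cell cycle inhibitor, was at 33907, 33809 and 34806 against 26915, 30614 and 24263. Nucleotide excision repair genes had 0 calls among 30 and a median of -0.09. Uvssa was at 316, 214 and 175 against 442, 388 and 553 (1.00, SE 0.26). Mitosis genes had a median of 0.05 over 30 and DNA replication genes -0.11 over 34, with 0 calls in either.

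Genes linked to Hmga2 or related to it had 0 calls among 22, with a median of -0.15. Hmga1, its closest relative, was at 4495, 2559 and 3265 against 2673, 3301 and 3051. Cdkn2b, a cell cycle inhibitor, was at 990, 1322 and 1504 against 692, 717 and 634 (-0.88, SE 0.27, adjusted p = 0.14). Mitochondrial genome transcripts had a median of 1.00 over 10 with 0 called. Hmga2-/- 1 held 258693 of mt-Co1 and Hmga2-/- 2 and 3 held 45499 and 35650, so that median followed the 2 libraries with the low mitochondrial share. Without those 2 libraries the difference of mt-Co1 was -0.66.

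Other genes with small p values and no call were spread over several roles. Klk8, a kallikrein protease of the upper epidermis, was at 4669, 7805 and 6780 in Hmga2-/- and 2271, 3604 and 2914 in K5H2 (-1.12, SE 0.22, adjusted p = 0.054). Of 25 epidermal protease and serpin genes, 19 had negative differences and the median was -0.29. Gch1, which makes the first step of tetrahydrobiopterin synthesis, was at 476, 777 and 755 against 153, 334 and 87 (-1.98, SE 0.40, adjusted p = 0.0615). Nectin2, a cell adhesion molecule, was at 2551, 2738 and 3242 against 1471, 1712 and 1409 (-0.89, SE 0.18). For Klk8, Gch1 and Nectin2 no K5H2 library reached a Hmga2-/- library.

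Stress and metabolic lists held 0 calls each. Of 28 NRF2 targets and metallothioneins, 21 had negative differences with a median of -0.31. Fth1, the ferritin heavy chain, was at 18058, 17709 and 18338 against 10931, 11386 and 8159 (-0.84, SE 0.21, adjusted p = 0.10). Medians were -0.18 over 27 heat shock and unfolded protein genes, -0.14 over 26 glycolysis and hypoxia genes, -0.13 over 25 arginase, polyamine and prostaglandin genes, -0.13 over 26 AP-1 and immediate early genes and -0.05 over 22 cholesterol synthesis genes. On the positive side were EGF ligands and their feedback genes, with 0.31 over 27, hemidesmosome and basement membrane genes, with 0.22 over 18, and retinoid and hyaluronan genes, with 0.18 over 26. Values of Lrat, an enzyme that esterifies retinol for storage, were 0, 6 and 2 in Hmga2-/- and 13, 49 and 18 in K5H2, far under the 152 to 936 of WT.

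Markers of other cells held 0 calls as well. Dermal fibroblast markers summed to 9430 to 11707 in Hmga2-/- and 12728 to 17184 in K5H2, with 9 positive differences among 11 and a median of 0.44. The sum weighs abundant markers most. Every K5H2 library lay above every Hmga2-/- library for 1 of the 11, or 9.09%, against 13.7% of all genes. Library medians around the gene means overlapped, at -0.21, 0.69 and -0.01 in Hmga2-/- and 0.79, 0.37 and -0.11 in K5H2. Neutrophil and macrophage markers summed to 541 to 770 against 457 to 1254, and sebocyte markers to 79561 to 102965 against 94134 to 111857. Hair follicle bulge and germ markers had 18 positive differences among 22, with a median of 0.20, and hair shaft and inner root sheath markers 10 negative ones among 12, with a median of -0.27. Basal keratinocyte markers had a median of -0.05 over 8. Of the endothelial, muscle, adipocyte and Merkel cell lists 4, 1, 2 and 1 markers were measured. The part of these cells in the differences above was not tested.

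**Figure D5:**
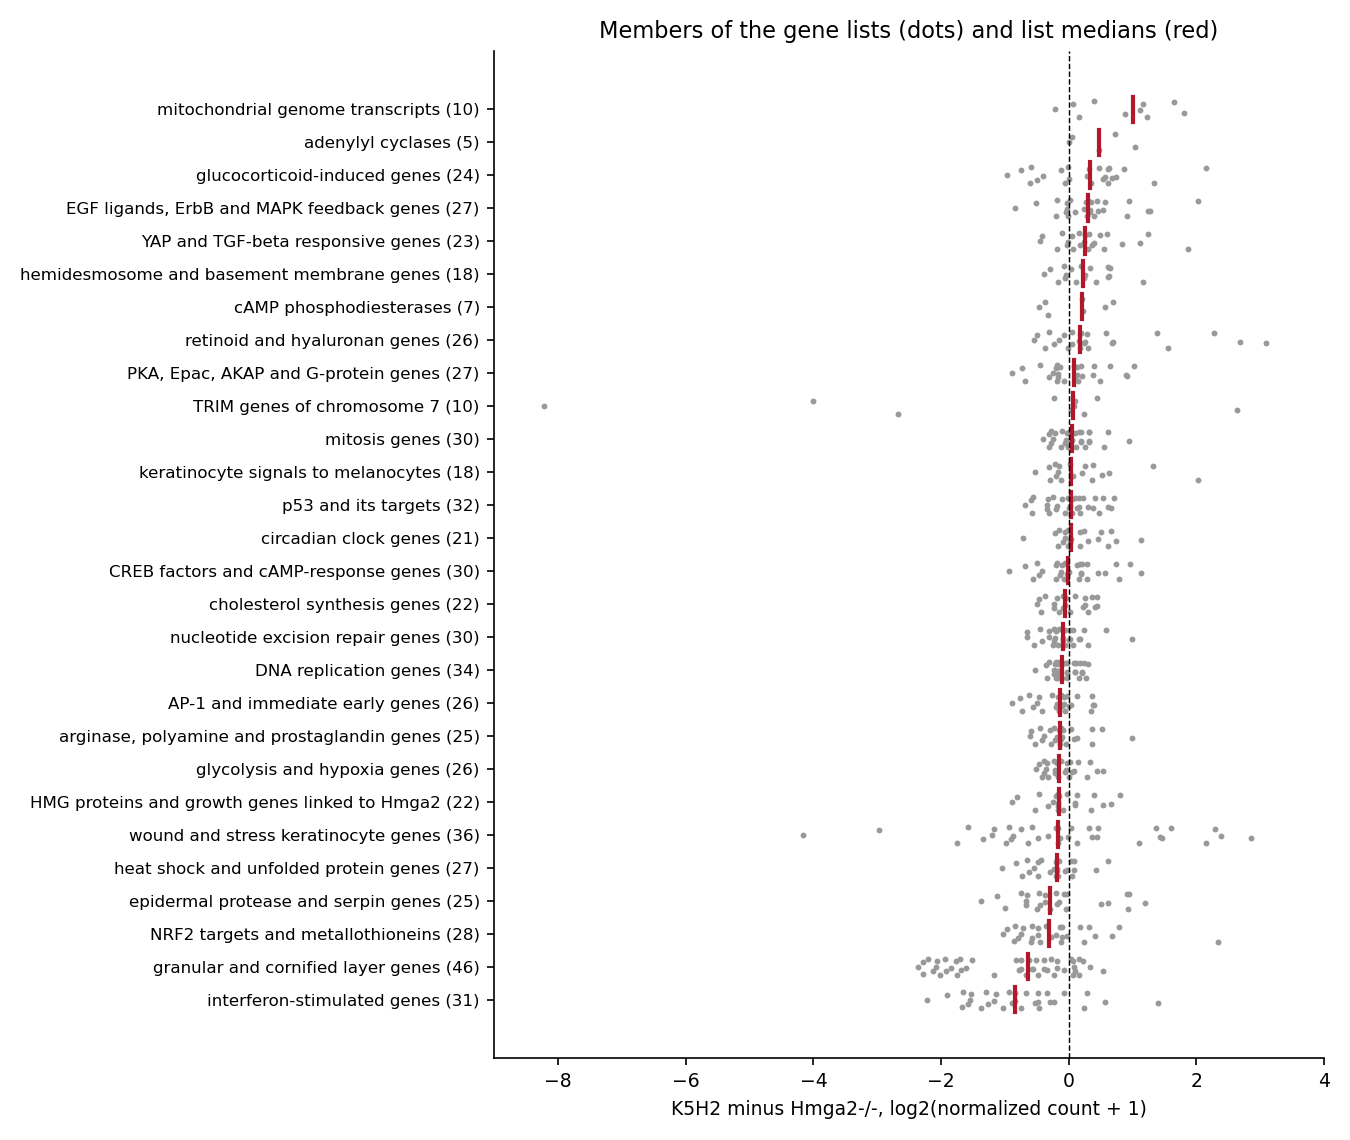
Grey dots are the measured members of 28 gene lists (number in brackets) by K5H2 minus Hmga2-/- on the log2(normalized count + 1) scale, and red bars are list medians. The interferon-stimulated and the granular and cornified layer lists have the lowest medians, -0.84 and -0.64, and the mitochondrial transcripts the highest, 1.00; the dashed line is the median of all genes.

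The direction of a gene's difference followed its transcript length. The 12962 genes with a transcript in GENCODE M21 were put in 5 bins of near-equal size by length. In the bin of the shortest, up to 1977 bases, the median difference was -0.36 and 19.8% of genes were positive. The positive share was 35.1%, 50.2%, 64.8% and 82.2% in the next 4 bins, and the median in the bin of the longest was 0.29. For the shortest genes, K5H2 3 and Hmga2-/- 2 were the far ends, with library medians of -0.36 and 0.29 around the gene means. Called higher genes had a median length of 5599 bases, called lower genes 2351.5 and all genes 3368. With a length trend removed in each library, an alternative added after seeing the data, 23 genes were called. They held 11 of the 23 called higher and 7 of the 14 called lower. The part of length in the other differences was not tested.

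At the filter's edge, 68 protein-coding genes entered with exactly 10 as the lowest of their 3 highest values, and 129 with 9 there did not enter. The highest value in any library had a median of 18 for the first group and 15 for the second.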

How the data were processed

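Polyadenylated RNA of keratinocytes was sequenced from 3 mice of each genotype, per the labels' protocols. Trim Galore, STAR, DESeq2 and GRCm38 are named, without versions, in the submitters' processing notes. The deposited table holds normalized counts rounded to whole numbers on mm10 Ensembl gene models, per the file headers. With no raw counts at hand, these deposited values were treated as a score. The deposited mean over libraries, also a score, was used to estimate what 1 read is worth in each library. The authors' fold changes and p-values were not used. There were 0 columns of other series.

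Genes at 10 or more in at least 3 libraries were tested with limma-trend on log2(value + 1), two-sided, in 1 fit of all 9 libraries with a mean per genotype. P-values were Benjamini-Hochberg adjusted over 14695 genes of any type, and calls were made under 0.05. Low genes change less on this scale than in truth. Every adjusted p comes from this fit unless a library is said to be left out.

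The labels describe 3 animals per genotype, and no library repeated another: over genes, the squared difference of 2 libraries of a group was in the median 4.29 to 23.1 times the variance of counting, where counting by itself gives 0.455. No label ties equal replicate numbers to a litter or day.

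Named genes were Hmga2, up to 15 called rises and falls with a mean of at least 50, up to 10 uncalled genes per direction where fewer than 15 were called, called members of each list or else the 2 with the smallest p, and called neighbours within 1 Mb. Some were left out for length, 1 interferon-stimulated gene is counted in its list but not reported here by itself, and called genes outside this rule and other uncalled genes were added after their values were seen. The comparison and the 43 lists were chosen with earlier results of these data known, and 893 of 897 names matched, 4 of them by another symbol. Near-identical copies were found with BLAST+ 2.17.0 among GENCODE M21 transcripts, at 90% identity over 100 bases or more.

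On simulated data with 200 changed genes among 14414, 38% of 2-fold and 88% of 8-fold changes were recovered, with 9 false among 135 calls. Each gene was drawn independently there, without shifts that genes share within a library, such as the trend with transcript length. The share of false calls in the real data is therefore not known from it. Alternatives covered filters, pseudocounts, scaling, moderation, a minimum fold, a replicate block, the genes and libraries fitted and each library left out. Fits used limma 3.58.1 in R 4.3.3; tables and plots used pandas 2.3.3, numpy 2.4.6, scipy 1.17.1 and matplotlib 3.10.9 under Python 3.11.15.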

Additional observations from a re-analysis of the deposited data

How the results depend on the processing

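Against 37 protein-coding genes called, 36 were called with only the 6 compared libraries, 45 with no filter, 27 with a filter at 50, 37 and 50 with pseudocounts of 0.5 and 10, 38 with median-of-ratios scaling, 40 with robust moderation and 40 without a trend. Counts moved to 9 with only protein-coding genes fitted, 6 with a minimum fold of 1.5, 23 with the length trend removed, and 249 with equal totals. Equal totals shifted the median of all genes by 0.23 and raised the share of higher calls from 62.2% to 92.4%. Leaving out 1 library gave 9 to 160 calls. Leaving out WT 1 and Hmga2-/- 3 together gave 18, and leaving out Hmga2-/- 2 and Hmga2-/- 3 together, which leaves a lone Hmga2-/- mouse assumed to vary like the others, gave 1. Of 882 values of called genes under these alternatives, 503 kept their call, 379 lost it and 0 changed sign. The Hmga2 difference of -0.81 ranged from -1.61 without K5H2 2 to 0.18 without K5H2 3, and differences of mt-Nd5 and mt-Co1 turned to -0.81 and -0.66 without Hmga2-/- 2 and Hmga2-/- 3 together. List medians relative to all genes kept their side under all 24 alternatives for 24 of 43 lists and families; that of interferon-stimulated genes stayed between -0.92 and -0.65. The cause of these moves was not tested.

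With the replicate number as a block, 50 genes were called, 21 higher and 29 lower. Deviations of same-numbered K5H2 and Hmga2-/- libraries correlated at -0.15 to 0.13, and 1 of 3 Hmga2-/- libraries correlated best with its own number. With 3 libraries a group, these values cannot tell whether same-numbered mice shared a litter or day.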

Other observations

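Genes that do not code for protein made up 36 of all 73 calls, from 1727 tested (2.08%). Pseudogenes were 28.8% of the calls and 4.14% of the genes tested: 21 of 608 were called (3.45%), 18 higher and 3 lower in K5H2. Each of the 18 higher pseudogenes matched a protein-coding gene at 95% identity or more, and for 16 of them that gene had a negative difference. Over all genes, 6433 of 12968 were negative, and in the bin of the shortest transcripts only 19.8% were positive. The 16 are not separate genes: Gm8210 and Gm13841 both matched Rpl29, Hmgb1-ps7 and Gm15387 both Hmgb1, and Gm14287 and Gm4202 both Ywhaz. The match of Gm13301 was not tested. Hmgb1-ps7 and Gm15387 together were at 94, 62 and 21 in Hmga2-/- and 1040, 821 and 1579 in K5H2, while Hmgb1, a chromatin protein, was at 9474, 8335 and 7206 against 7808, 6965 and 5348. With the pseudogenes added, the difference of Hmgb1 was -0.09. Gm6166 was at 71, 29 and 16 against 498, 933 and 611, and its match Fabp5, a fatty acid carrier of keratinocytes, was at 11997, 12785 and 9849 against 11175, 17550 and 9299.

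Rps19-ps6 went the other way, at 4110, 2516 and 4802 in Hmga2-/- and 51, 78 and 58 in K5H2. WT 1 held 68 of it, close to K5H2, and WT 2 and WT 3 held 1807 and 1599. Among other non-coding genes, Gm35082 was listed at 0 in all 6 WT and Hmga2-/- libraries and at 92, 147 and 144 in K5H2. Cep83os fell from 207, 156 and 133 to 29, 11 and 27. Firre, an X-linked nuclear RNA, rose from 168, 257 and 274 to 702, 578 and 561 (1.42, adjusted p = 0.018). Malat1, another nuclear RNA, was at 2096, 2369 and 3022 against 4018, 5588 and 4942 and was not called. Neat1 was at 1615, 5886 and 4296 against 8581, 6013 and 7046 (1.05, adjusted p = 0.17). For Kcnq1ot1 the genotypes overlapped, at 91, 42 and 73 against 85, 67 and 74 (0.19, adjusted p = 0.80).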
